A study of Mus musculus with 8 samples.

Results

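Greb1, Kap, Esr1, Prlr, Odc1 and Slco1a1, 6 mouse genes known to respond to steroid hormones or to carry their signal, were followed in kidney RNA, out of 42256 genes counted and 15852 tested. They were picked by name, with earlier results of these libraries in view, and all 6 passed the filter on low counts. The level in each library and the difference between the labelled genotypes are therefore given for them as a description. The samples were kidneys of 8 adult male mice on a mixed 129S1/Sv x C57BL/6 background, 4 labelled CDH11+/+ and 4 labelled CDH11-/-. Every mouse had received aristolochic acid, a plant toxin that injures the proximal tubule, at 3 mg/kg on 5 days, and was killed 2 weeks after the last dose. The title of the series speaks of Unx/AngII instead, and groups were taken from the sample labels. No uninjured kidney was measured, and the labels do not say whether the animals were littermates. CDH11 is cadherin-11, an adhesion protein of mesenchymal cells.

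Androgens and estrogens enter cells and bind nuclear receptors, which then act as transcription factors on their target genes. The proximal tubule of the mouse kidney is a classical androgen target: in males it makes more of a set of transporters, cytochrome P450 enzymes and secreted proteins than in females. Growth hormone and prolactin, pituitary hormones whose receptors belong to the cytokine receptor family, act on some of the same genes.

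The start regions of the 3 genes with the widest differences among the libraries, Greb1, Kap and Slco1a1, are shown to place the hormone receptor motifs near them. They are the 250 bases before the annotated start, 5′ to 3′ on the strand of the gene, from RefSeq (GRCm38.p6). All 6 genes had an entry there. Capitals mark the 6-base arm AGGTCA of the estrogen response element, or its reverse complement TGACCT, and in Kap the TATA box TATAAA.
Greb1, chr12:16800887-16801136, minus strand: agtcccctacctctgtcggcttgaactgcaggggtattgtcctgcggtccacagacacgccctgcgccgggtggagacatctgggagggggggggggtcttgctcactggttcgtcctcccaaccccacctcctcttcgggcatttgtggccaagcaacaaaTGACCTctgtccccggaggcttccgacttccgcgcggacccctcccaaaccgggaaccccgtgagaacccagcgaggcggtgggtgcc
Kap, chr6:133853668-133853917, minus strand: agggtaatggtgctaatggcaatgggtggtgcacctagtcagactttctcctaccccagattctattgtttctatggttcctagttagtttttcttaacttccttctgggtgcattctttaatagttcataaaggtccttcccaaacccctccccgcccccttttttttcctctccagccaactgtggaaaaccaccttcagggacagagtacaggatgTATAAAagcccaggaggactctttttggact
Slco1a1, chr6:141946963-141947212, minus strand: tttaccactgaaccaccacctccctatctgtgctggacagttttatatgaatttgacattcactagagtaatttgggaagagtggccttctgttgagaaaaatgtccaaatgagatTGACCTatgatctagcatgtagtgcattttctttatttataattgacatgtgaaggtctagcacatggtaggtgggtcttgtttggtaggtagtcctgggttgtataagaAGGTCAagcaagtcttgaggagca
Greb1 held 1 such arm, 88 to 83 bases before the start shown, and Slco1a1 held 2, at 134 to 129 and 24 to 19 bases. The entry of a downstream start of Greb1, chr12:16757240-16757489, held none. Of 32851 mouse promoter entries of the same length, 14.0% held this arm on either strand, so a match is common. The complete palindromic estrogen response element was found in 0.0517% of the entries and in no entry of the 6 genes. The complete androgen response element, in 0.0304% of entries, was likewise not in these windows. Its arm AGAACA, in 16.1% of entries on either strand, was found at a downstream start of Prlr, 12 to 7 bases before it. The TATA box of Kap lay 31 to 26 bases before its start, and 12.4% of entries held these letters on either strand. In Slco1a1 the same letters lie on the other strand at 209 to 204 and 99 to 94 bases, left in lower case, and no matches overlapped. Of the genes with a promoter entry, 5 of 17 in a list of estrogen-responsive genes and 2 of 15 in a list of androgen-dependent or male-biased kidney genes held the estrogen arm. The first count includes Greb1 and the second Slco1a1. These counts are of genes with a match in any of their entries, so they cannot be set directly beside the 14.0% of entries.

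Libraries held 10675309 to 18539479 counts. Levels are given in CPM, counts scaled to a common library size with TMM factors. Cdh11, the targeted gene, was at 75.6, 58.0, 61.7 and 59.0 CPM in replicates 1 to 4 labelled CDH11+/+ and at 89.9, 91.3, 112.5 and 117.2 CPM in those labelled CDH11-/-, so every library labelled as lacking it was above every other, and directions below rest on labels that this gene goes against. Its call in edgeR ended in 7 of 17 alternative analyses. The log2 difference of Cdh11 was 0.26 with limma on the authors' normalized values (adjusted p = 0.524). With the authors' scaling factors as edgeR offsets it was 0.24 (edgeR adjusted p = 0.545). The proximal tubule was present in every library: the summed level of its 20 markers was 5571 to 11618 CPM in the libraries labelled CDH11+/+ and 4307 to 7021 CPM in those labelled CDH11-/- (n = 4 each, two-sided exact permutation p = 0.0857, and 0.189 when adjusted by Benjamini-Hochberg for 11 such measures). CDH11+/+ replicate 1, at 5571 CPM, stood below the other libraries of its label. Of the 20 markers, 20 had a negative log2 difference, with a median of −0.71 (−0.87 without CDH11+/+ replicate 1), where the median of all genes tested was −0.01. By the edgeR quasi-likelihood test with Benjamini-Hochberg adjusted p under 0.05, 0 of the 20 passed. Before adjustment 17 had p under 0.05, as had 14.1% of all genes tested (2232 of 15852), the share to hold beside each such count below. DESeq2 called 10 of them (3.36% of all genes in DESeq2), limma-voom 6 (4.28% of all genes) and edgeR without CDH11+/+ replicate 1 called 9 (6.25% of all genes). In bulk tissue, fewer cells of a type and less RNA per cell cannot be told apart. Libraries matched the labelled sex: the Y-chromosome genes Ddx3y, Kdm5d, Uty and Eif2s3y summed to 104.4 to 171.6 CPM, and Xist, the transcript of the inactive X, lay between 0.0923 and 0.672 CPM.

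Greb1 encodes a cofactor that binds the estrogen receptor and is one of the most strongly estrogen-induced genes of reproductive tissue. In replicates 1 to 4 labelled CDH11+/+ it was at 8.58, 18.7, 9.26 and 16.8 CPM, and in those labelled CDH11-/- at 1.21, 1.23, 0.845 and 0.303 CPM. Every library labelled CDH11-/- lay below every library labelled CDH11+/+, by at least the distance between 1.23 and 8.58 CPM. Mean levels of 13.3 ± 5.16 and 0.896 ± 0.433 CPM (SD, n = 4 each) gave a fitted log2 difference of −3.87 ± 0.39 (SE), or 14.6-fold. The libraries behind these levels held 93, 246, 117 and 218 reads of Greb1 for CDH11+/+ and 18, 19, 16 and 4 for CDH11-/-, so the lower levels rest on few reads. Of the 6 genes, 1, Greb1, was past the threshold of the edgeR test, on the lower side, where 0.347% of all genes tested were. It was the 1 of the 6 called also by DESeq2 (3.36% of all genes), by limma-voom (4.28%) and without CDH11+/+ replicate 1 (6.25%). Its libraries were also the only ones of the 6 genes that did not overlap in CPM, as was the case for 7.33% of all genes tested (3.74% lower and 3.59% higher). Since this comparison helped to choose Greb1, nothing is read from those counts.

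The size of the Greb1 difference depended on which deposited table was used. In the authors' normalized values Greb1 was at 73.6, 222.1, 97.2 and 165.3 in the libraries labelled CDH11+/+ and at 47.1, 55.3, 7.23 and 2.58 in those labelled CDH11-/-. The groups still did not overlap, but CDH11-/- replicates 1 and 2 came close to the lowest CDH11+/+ library. The factor by which the authors had divided the Greb1 count, relative to the median factor of the library, was 0.356 and 0.307 in CDH11-/- replicates 1 and 2, and 1.16 to 1.64 in the other 6 libraries. For Kap the same relative factor ran from 0.985 to 1.02. With limma on the authors' values the log2 difference of Greb1 was −2.93, and with their factors as edgeR offsets it was −2.91; in both it was not past the threshold. In the other 15 of 17 alternatives it was. Greb1 overlaps 2 other gene models, Gm48140 on the opposite strand and Gm44305 on the same strand. Whether reads were shared among them in the authors' counting was not tested.

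**Figure D1:**
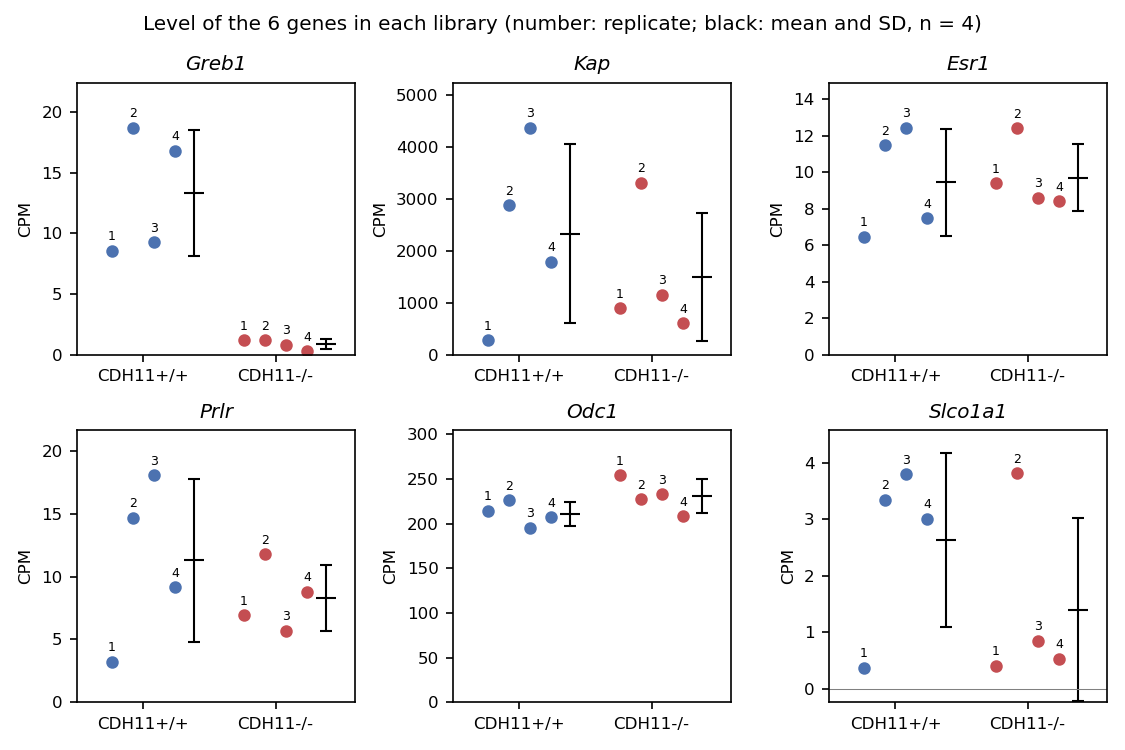
Each panel plots the CPM of 1 gene (vertical axis) in the 4 libraries labelled CDH11+/+ (blue) and the 4 labelled CDH11-/- (red); numbers are replicates, and the black bar is the mean with its SD. Greb1 separates the labels, at 8.58 CPM or more against 1.23 CPM or less, while the other 5 genes overlap and Kap and Slco1a1 spread more than 10-fold among libraries.

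Greb1 lies on chromosome 12 from 16670615 to 16800886 (GRCm38, minus strand), and its neighbours did not share its difference. E2f6, which encodes a transcriptional repressor and lies 0.0101 Mb away, was at 22.5 ± 1.89 and 23.2 ± 1.498 CPM (SD, n = 4 each), a log2 difference of 0.04 ± 0.09 (SE). Lpin1, a phosphatidate phosphatase gene, and Rock2, a kinase gene, lie 0.0596 and 0.094 Mb away and gave 0.07 ± 0.09 and 0.02 ± 0.08 (log2, SE). Of 13 tested genes within 2 Mb, 0 passed in edgeR (2 at an unadjusted p under 0.05), with log2 differences from −0.24 to 0.85. Another of the 6 genes, Odc1, is among those 13 genes, 0.744 Mb from Greb1. The closest paralog, Greb1l, which is needed for kidney development, was at 10.3 ± 0.881 and 8.70 ± 1.47 CPM (SD, n = 4 each) and overlapped between the labels, with a log2 difference of −0.24 ± 0.14 (SE, edgeR adjusted p = 0.476).

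Kap, the kidney androgen-regulated protein, is an abundant and almost kidney-restricted transcript of the mouse proximal tubule. Replicates 1 to 4 labelled CDH11+/+ were at 283.8, 2872, 4363 and 1790 CPM, a 15.4-fold range, and those labelled CDH11-/- at 900.3, 3311, 1157 and 612.3 CPM. The lowest and the highest library were both labelled CDH11+/+, and CDH11-/- replicate 2 was the next highest. Mean levels were 2327 ± 1723 and 1495 ± 1231 CPM (SD, n = 4 each), and the fitted log2 difference was −0.64 ± 0.88 (SE), smaller than its error. The SD of Kap within labels, 1.43 on the log2 scale, exceeded that of 99.5% of all genes tested, whose median was 0.16. It became −1.39 without CDH11-/- replicate 2 and −0.14 without CDH11+/+ replicate 3, the libraries with the most Kap of each label.

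Slco1a1 encodes an organic anion transporter of the brush border that is far more abundant in male than in female mouse kidney. It was at 0.369, 3.34, 3.80 and 3.01 CPM in the libraries labelled CDH11+/+ and at 0.403, 3.81, 0.845 and 0.530 CPM in those labelled CDH11-/-, on 4 to 59 reads. CDH11+/+ replicate 1 was the lowest, next to 3 of the libraries labelled CDH11-/-, and CDH11-/- replicate 2 was the highest of the 8. The log2 difference was −0.92 ± 0.81 (SE), with means of 2.63 ± 1.54 and 1.40 ± 1.62 CPM (SD, n = 4 each). Without CDH11-/- replicate 2 it was −2.12, still with overlapping libraries. Among its relatives, Slco1a6 was at 42.1, 82.4, 46.4 and 61.8 CPM against 24.4, 23.4, 28.8 and 19.8 CPM and did not overlap between labels. Its log2 difference of −1.27 ± 0.22 (SE) did not pass in edgeR (adjusted p = 0.0554) but did in 6 of 17 alternatives, DESeq2 and limma-voom among them. Slco1a5 (0.72 ± 0.29, edgeR adjusted p = 0.288) and Slco1a4 (−0.11 ± 0.40, adjusted p = 0.934) were at low levels and overlapped (log2, SE). Reads of these close paralogs of one cluster could be split in counting, so their values are uncertain.

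Prlr encodes the prolactin receptor. It was at 3.23, 14.7, 18.0 and 9.18 CPM in the libraries labelled CDH11+/+ and at 6.92, 11.8, 5.70 and 8.79 CPM in those labelled CDH11-/-. Both labels covered the middle of the range, and the extremes again were CDH11+/+ replicates 1 and 3. The log2 difference was −0.46 ± 0.48 (SE), from means of 11.3 ± 6.49 and 8.29 ± 2.64 CPM (SD, n = 4 each).

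Esr1, the gene of estrogen receptor alpha, was at 6.46, 11.5, 12.4 and 7.48 CPM and at 9.40, 12.4, 8.60 and 8.41 CPM in the 2 labels. The means, 9.46 ± 2.93 and 9.71 ± 1.85 CPM (SD, n = 4 each), were closer than the spread, with a log2 difference of 0.03 ± 0.22 (SE). Odc1 encodes ornithine decarboxylase, the first enzyme of polyamine synthesis and a classical androgen-induced gene of the mouse kidney. It was at 214.3, 226.4, 195.3 and 207.3 CPM in the libraries labelled CDH11+/+ and at 253.9, 227.2, 232.8 and 208.0 CPM in those labelled CDH11-/-. CDH11-/- replicate 4 alone lay within the range of the other label, and mean levels were 210.8 ± 13.0 and 230.5 ± 18.9 CPM (SD, n = 4 each). The log2 difference was 0.13 ± 0.07 (SE), and the SD within labels, 0.10 on the log2 scale, was larger than that of 27.3% of genes tested.

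Scaled by the summed length of annotated exons, the order of the median levels over the 8 libraries was Kap, Odc1, Esr1, Prlr, Greb1 and Slco1a1. Kap was at 2084 CPM per kilobase (range 401.4 to 6172) and Odc1 at 64.7 (57.3 to 74.6), with no overlap between them. Esr1 at 0.659 (0.473 to 0.909), Prlr at 0.586 (0.211 to 1.18), Greb1 at 0.512 (0.0316 to 1.95) and Slco1a1 at 0.365 CPM per kilobase (0.07 to 0.723) overlapped one another. In the libraries labelled CDH11+/+ alone, Greb1 at 1.39 ± 0.539 CPM per kilobase had the highest mean of those 4 genes, and in the others at 0.0935 ± 0.0452 the lowest (SD, n = 4 each).

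The libraries took nearly the same order for Kap, Slco1a1 and Esr1, and another order for Odc1. Likeness was counted over the 28 pairs of libraries, as the number that 2 genes put in the same order, and over the 12 pairs of the same label, which do not involve the comparison of labels. Kap shared the order of 11 of the 12 pairs with Slco1a1 and 11 with Esr1, 9 with Prlr and 5 with Odc1, where the median of 12737 genes at 5 CPM or more was 6. Of these genes, 6.12% reached 11 or 12 pairs with Kap. Greb1 shared 9 pairs with Kap, as many as Prlr did, 10 with Esr1, and 8 each with Prlr, Odc1 and Slco1a1. The summed proximal tubule markers shared 11 of 12 pairs with Greb1 and 10 with Kap, and those of the thick ascending limb and distal tubule 10 and 11. Stromal markers shared 1 with Greb1 and 2 with Kap, and immune markers shared 2 and 1. The part of tubule content in these orders was not tested.

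By this count over all 28 pairs, the named genes at 5 CPM or more that were most like Greb1 were Adi1, Cela1, Gjb1, Aldh7a1 and Dpp7, each with 28 of 28 pairs in the same order. The 28 include the pairs across the labels, the comparison that helped to choose Greb1. Any gene lower without overlap shares all of those, so this ranking partly selects on that comparison. The order of CDH11-/- replicates 1 and 2 rests on 18 and 19 reads of Greb1. The share of all genes with 28 of 28 was not counted. Adi1, an enzyme of methionine salvage, was at 67.1 ± 15.99 CPM in the libraries labelled CDH11+/+ and at 36.3 ± 4.91 CPM in the others (SD, n = 4 each), a log2 difference of −0.89 ± 0.17 (SE), and the other 4 had −0.84 to −0.44, so none came near the size for Greb1. Over the 12 pairs of the same label the nearest genes were Aqp11, Gsta3, Slc34a3, Cyp2d26 and Pcx, each at 12 of 12. Slc34a3 encodes a phosphate transporter of the proximal tubule and Pcx the gluconeogenic enzyme pyruvate carboxylase. For Greb1, 1.02% of genes at that level reached 12 of 12.

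Of 20 tested androgen-dependent or male-biased kidney genes, 3 fell in the libraries labelled CDH11-/- and 0 rose in edgeR, where 0.347% of all genes tested fell. This list and those below were chosen with earlier results of these libraries known. Their counts are therefore a description, and no enrichment is read from them. The 3 were the cytochrome P450 genes Cyp4a12a, Cyp4a12b and Cyp2j13. DESeq2 called 5 lower and 0 higher, and limma-voom 5 lower and 1 higher. The log2 difference was negative for 15 of the 20, against 8281 of all 15852 genes, with a median of −0.88, and 8 had p under 0.05 before adjustment. Kap, Odc1 and Slco1a1 are part of this list, and Slc22a6 is also among the proximal tubule markers. Cyp4a12b, which with Cyp4a12a makes the vasoactive lipid 20-HETE, was at 14.9, 15.4, 10.3 and 17.4 CPM against 7.99, 5.49, 6.92 and 6.06 CPM. Every library labelled CDH11-/- was below every other, and its log2 difference was −1.13 ± 0.18 (SE, edgeR adjusted p = 0.0184). Cyp4a12a had mean levels of 6.02 ± 1.71 and 1.29 ± 0.880 CPM (SD, n = 4 each), a log2 difference of −2.20 ± 0.42 (SE, edgeR adjusted p = 0.0496). Cyp2j13, an epoxygenase gene, had 82.6 ± 13.2 and 48.9 ± 6.46 CPM (SD, n = 4 each), or −0.76 ± 0.12 (edgeR adjusted p = 0.0275). The next by p, Cyp4b1, did not pass at −1.43 ± 0.25 (edgeR adjusted p = 0.0623) and passed in 4 of 17 alternatives. The proximal tubule markers, with their median of −0.71, moved the same way, and their part in this result was not tested.

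Over 17 alternatives that of Cyp4a12a ended in 11, of Cyp2j13 in 6 and of Cyp4a12b in 4. Leaving out 1 library ended all 3 calls for CDH11+/+ replicate 2 (adjusted p = 0.147, 0.0529 and 0.059 for Cyp4a12a, Cyp2j13 and Cyp4a12b), CDH11+/+ replicate 4 (0.155, 0.109 and 0.0851), CDH11-/- replicate 3 (0.166, 0.0882 and 0.0598) and CDH11-/- replicate 4 (0.0546, 0.0832 and 0.0525). The calls of Cyp4a12a and Cyp2j13 also ended without CDH11+/+ replicate 3 (0.0531 and 0.0526), that of Cyp4a12a without CDH11-/- replicate 2 (0.102) and that of Cyp2j13 without CDH11-/- replicate 1 (0.0909, edgeR throughout). Cyp4a12a and Cyp4a12b are near-identical neighbours, so reads may have been split between them.

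**Figure D2:**
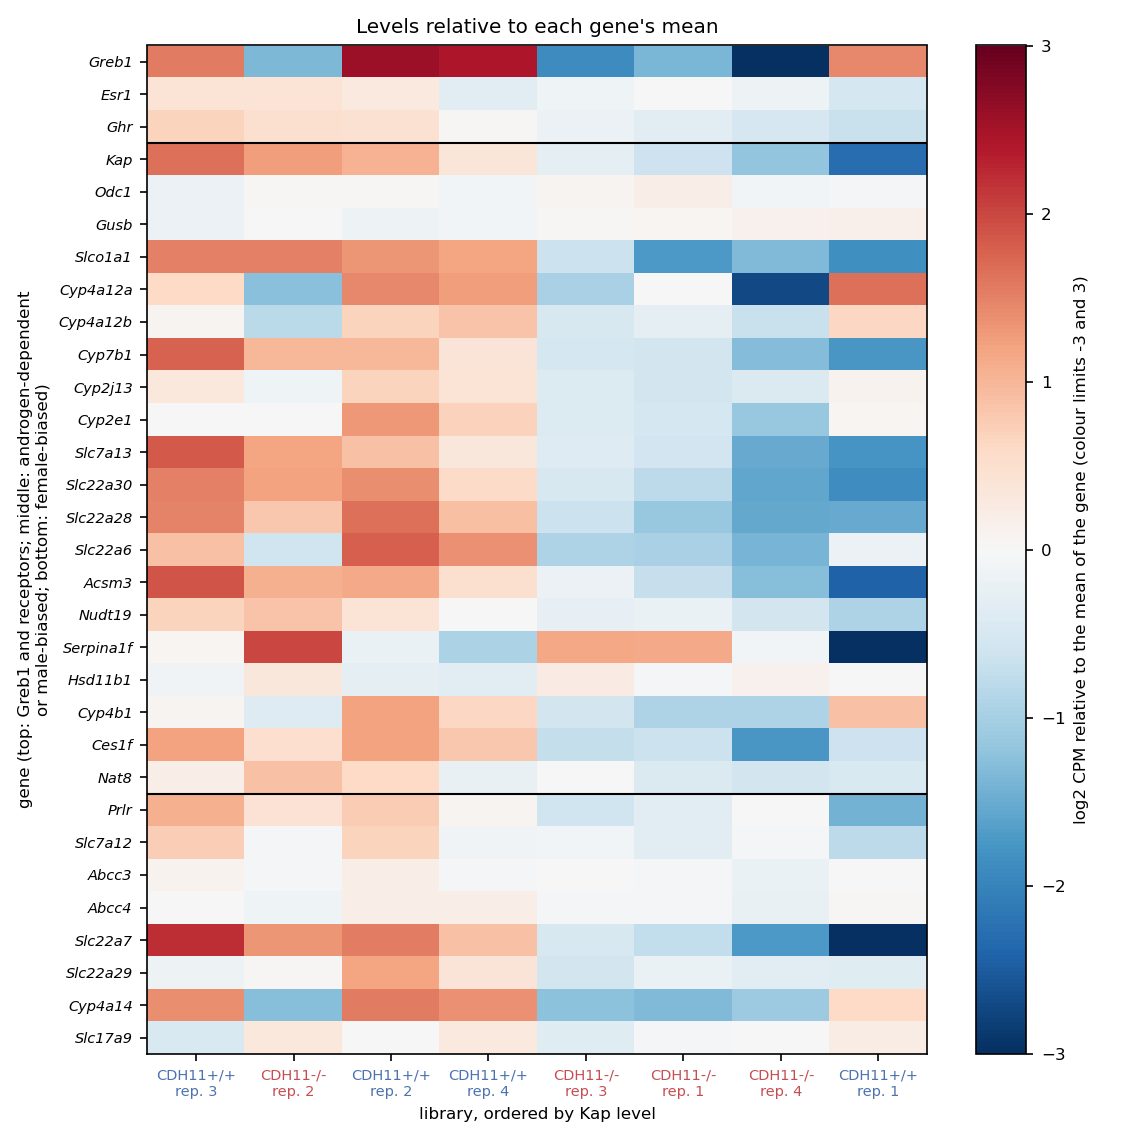
Colour gives the log2 CPM of each gene (rows) relative to its mean over the 8 libraries (columns, ordered from the highest to the lowest Kap; blue names are labelled CDH11+/+, red CDH11-/-). Slco1a1, Cyp7b1, Slc7a13, Slc22a30, Acsm3 and Slc22a7 fade from left to right with Kap whatever the label, while Greb1, Cyp4a12a, Cyp4a12b and Cyp4a14 follow the label, with CDH11+/+ replicate 1 at the far right above the libraries labelled CDH11-/-.

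Within that list, genes fell into those that kept the order of Kap and those that did not. Of 19 other list genes, 10 shared 11 or 12 of the 12 pairs of the same label with Kap, and 5 shared all 12, where 1.55% of genes at 5 CPM or more shared 12. The trait was not particular to this list. Of the 20 proximal tubule markers 7 shared 11 or 12 pairs with Kap and 1 shared all 12. Among the 8 thick ascending limb and distal markers, 3 shared 11 or 12 and 0 shared all 12. The 5, chosen after their values were seen, were Cyp7b1 (oxysterol hydroxylase), Slc7a13 (cystine transporter of the straight proximal tubule), Slc22a30, Acsm3 and Serpina1f. Cyp7b1 was at 12.6, 84.5, 144.4 and 56.1 CPM in the libraries labelled CDH11+/+ and at 29.0, 85.7, 29.6 and 17.2 CPM in the others, an order that matched Kap in 28 of 28 pairs. Acsm3 ranged 19.9-fold over the libraries, Slc7a13 12.2-fold and Slc22a30 10.3-fold, and their log2 differences, −0.89 ± 0.88, −0.79 ± 0.83 and −0.88 ± 0.82 (SE), were about as large as their errors. Cyp4a12a and Cyp4a12b each shared 4 of the 12 pairs with Kap. In CDH11+/+ replicate 1, the lowest library for Kap, Cyp4a12a was at 7.75 CPM, its highest level.

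Of 8 female-biased kidney genes, Prlr among them, 8 had negative differences (median −0.41). So had 20 of 20 proximal tubule markers and 8281 of all 15852 genes. In edgeR 1 of the 8 fell, where 0.347% of all genes tested did. It was Cyp4a14, a fatty acid omega-hydroxylase gene. Cyp4a14 was at 6.64, 12.8, 11.5 and 11.3 CPM in the libraries labelled CDH11+/+ and at 1.75, 1.81, 1.85 and 2.05 CPM in those labelled CDH11-/-. The labels were far apart, with a log2 difference of −2.50 ± 0.21 (SE, edgeR adjusted p = 0.00056, and past the threshold in 17 of 17 alternatives). Abcc4, an efflux pump gene (−0.22 ± 0.07, adjusted p = 0.178), and Slc22a29 (−0.65 ± 0.34, adjusted p = 0.415) did not pass in edgeR (log2, SE). Slc22a7, an organic anion transporter, named after its values were seen, kept the order of Kap in 12 of 12 pairs of the same label. The medians of the male-biased and the female-biased list were both negative.

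Of the receptors, 0 of 11 tested, Esr1 and Prlr among them, passed in edgeR. Before adjustment 3 had p under 0.05, where 14.1% of all genes had (DESeq2 called 0, limma-voom 1, and edgeR without CDH11+/+ replicate 1 called 2). The median was −0.08. The glucocorticoid receptor Nr3c1 differed by −0.15 ± 0.07, the mineralocorticoid receptor Nr3c2 by −0.08 ± 0.10, and the growth hormone receptor Ghr by −0.29 ± 0.34 (log2, SE). Ghr ordered the libraries exactly as Kap did, in 28 of 28 pairs, from 122.6 CPM in CDH11+/+ replicate 1 to 305.9 CPM in replicate 3. The estrogen-related orphan receptors gave −0.02 ± 0.08 (Esrra), 0.31 ± 0.20 (Esrrb) and −0.37 ± 0.11 (Esrrg, edgeR adjusted p = 0.158), and the membrane estrogen receptor Gper1 and the progesterone receptor Pgr gave 0.29 ± 0.35 and 0.01 ± 0.39 (log2, SE). Esr2, the gene of estrogen receptor beta, did not pass the filter on low counts and reached at most 0.194 CPM.

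Of 19 tested estrogen-responsive genes 1, Greb1 itself, fell in edgeR and 0 rose, with 5 at p under 0.05 before adjustment and a median of −0.09. DESeq2 and limma-voom each called 2 lower (Greb1 and Igfbp4) and 1 higher (Cxcl12), and edgeR without CDH11+/+ replicate 1 called 3 lower and 0 higher. Pgr and Areg, classical estrogen targets, were at low levels and within the spread, and Tff1, Tff3 and Ltf did not pass the filter. Igfbp4, an IGF-binding protein gene, was at 513.5, 680.0, 562.3 and 608.9 CPM against 441.3, 478.6, 454.5 and 356.8 CPM, without overlap. Its log2 difference of −0.45 ± 0.11 (SE) did not pass in edgeR (adjusted p = 0.0845), but passed in DESeq2 (adjusted p = 0.00723), limma-voom (0.0205) and edgeR without CDH11+/+ replicate 1 (0.0169), of 17 alternatives. Igfbp4 put 27 of 28 pairs of libraries in the same order as Greb1. So did Amd2, Hsd3b3 and the proximal tubule markers Slc22a6, Slc13a3, Fbp1 and Miox. Pairs across the labels agree for any 2 genes that are both lower without overlap. Over the 12 pairs of the same label Igfbp4 shared 11 with Greb1, and 5.5% of genes at 5 CPM or more shared 11 or 12. Cxcl12, a chemokine gene, was higher in each library labelled CDH11-/- (log2 0.78 ± 0.19, SE). It did not pass in edgeR (adjusted p = 0.121) but passed in DESeq2 (adjusted p = 0.000903) and limma-voom (0.0443), of 17 alternatives. In the list of estrogen receptor cofactors 0 of 12 passed in edgeR (0 also before adjustment, by DESeq2 and by limma-voom), the median was −0.03, and the genes of smallest p were Phb2 (−0.08 ± 0.07), Ncor1 (−0.07 ± 0.06) and Med1 (−0.08 ± 0.07, log2, SE).

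Of 21 tested polyamine genes, Odc1 among them, 0 passed in edgeR (4 before adjustment, against 14.1% of all genes, and none by DESeq2 or limma-voom), with a median of −0.01. The acetyl-polyamine oxidase gene Paox (0.33 ± 0.13, adjusted p = 0.267), the spermine synthase gene Sms (−0.26 ± 0.11, adjusted p = 0.317) and Slc3a2, a transporter heavy chain gene (−0.21 ± 0.08, adjusted p = 0.263), had the smallest p in edgeR (log2, SE). Of 13 prolactin and growth hormone signalling genes, Prlr and Ghr among them, 0 passed in edgeR (1 before adjustment, 0 by DESeq2, 1 by limma-voom), with a median of −0.07. Igfals, a carrier of circulating IGF, had the smallest p (−0.82 ± 0.24, edgeR adjusted p = 0.164), followed by Stat5a (−0.16 ± 0.10) and Stat3 (0.07 ± 0.06, log2, SE). Of 19 steroid metabolism genes 0 passed in edgeR (7 before adjustment, 1 by DESeq2, 2 by limma-voom). Their median was −0.24, with Hsd17b4 at −0.23 ± 0.06, the steroid 5-alpha-reductase gene Srd5a1 at −0.24 ± 0.08 and Hsd11b1, which regenerates active glucocorticoid, at 0.34 ± 0.10 (log2, SE, edgeR adjusted p from 0.143 to 0.191). Of 10 tested organic anion transporting polypeptide genes, Slco1a1 among them, 0 passed in edgeR (4 before adjustment, 2 each by DESeq2 and limma-voom), with a median of 0.01. Slco2b1, at 0.34 ± 0.09 (edgeR adjusted p = 0.109), was one of the 3 of smallest p there, with Slco1a6 and Slco1a5. The glucocorticoid-induced genes Fkbp5 (0.91 ± 0.16, edgeR adjusted p = 0.041) and Zbtb16 (2.45 ± 0.37, edgeR adjusted p = 0.0447), named after their values were seen, were higher in the libraries labelled CDH11-/- (log2, SE) and passed in 9 and 10 of 17 alternatives. In edgeR 0.372% of all genes tested passed on the higher side. Other glucocorticoid targets were not counted here, and a glucocorticoid response was not tested.

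**Figure D3:**
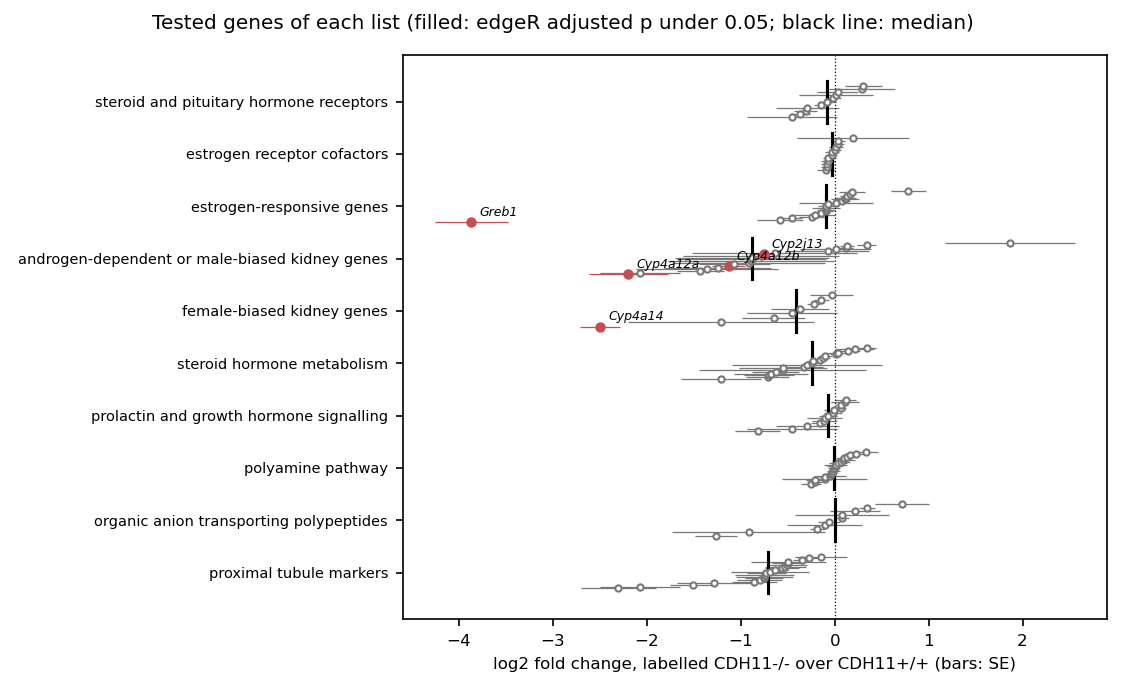
Each point is the log2 fold change of 1 tested gene (horizontal axis, bars SE), labelled CDH11-/- over CDH11+/+, in the pathway lists and the proximal tubule markers (rows); filled points had an edgeR adjusted p under 0.05 and black lines are medians. Greb1 at −3.87 stands far from the other estrogen-responsive genes, whose list median is −0.09, and the androgen-dependent genes and proximal tubule markers centre at −0.88 and −0.71.

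Of the proximal tubule markers, Lrp2, the megalin gene, was at 245.1, 453.3, 341.2 and 324.7 CPM in the libraries labelled CDH11+/+ and at 209.1, 247.0, 217.6 and 149.6 CPM in those labelled CDH11-/-. Lrp2 gave −0.73 ± 0.21 and the phosphate transporter gene Slc34a1 −0.80 ± 0.24 (log2, SE, edgeR adjusted p = 0.191 and 0.206). Without CDH11+/+ replicate 1 the log2 difference of Greb1 was −4.02, and that of Kap −0.999. The injury marker Havcr1 gave 0.03 ± 0.13 (log2, SE, edgeR adjusted p = 0.953). The part of tubule content in the Greb1 difference was not tested.

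**Figure D4:**
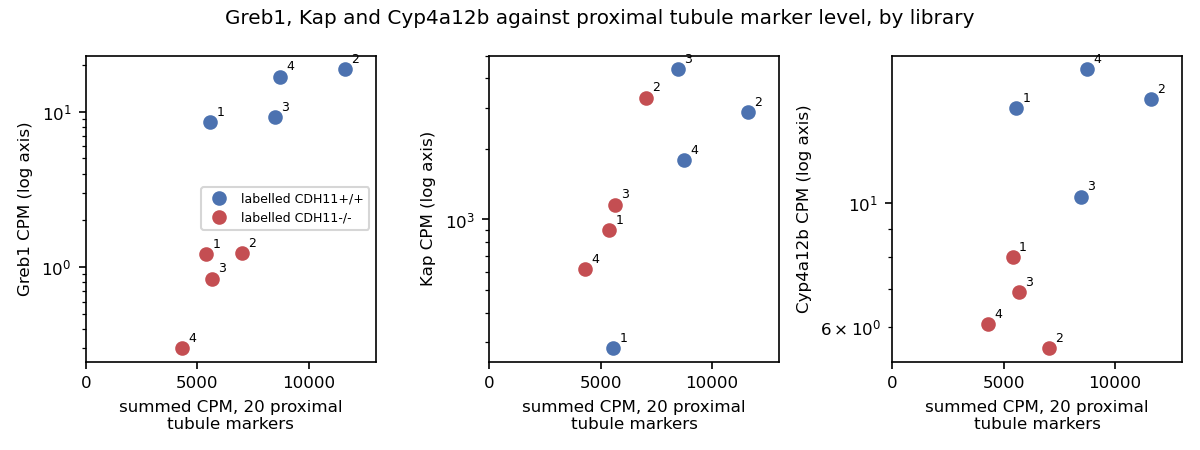
The CPM of Greb1, Kap and Cyp4a12b (vertical, log axes) is plotted against the summed CPM of 20 proximal tubule markers (horizontal) for the 8 libraries; numbers are replicates. Marker sums run from 5571 to 11618 CPM in the libraries labelled CDH11+/+ and from 4307 to 7021 CPM in the others, and Kap is lowest in CDH11+/+ replicate 1.

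Markers of other cell types moved with the labels in part. In edgeR 0 genes passed in the injury (10 tested, median −0.01), distal (8, −0.19), stromal (8, 0.47), endothelial (8, 0.32) and immune lists (7, 0.15), where 3, 2, 4, 6 and 0 did before adjustment and DESeq2 called 2, 0, 2, 4 and 0. Limma-voom called 1, 0, 3, 6 and 0 (4.28% of all genes). Without CDH11+/+ replicate 1 (6.25% of all genes), edgeR called 5 stromal, 6 endothelial and 2 immune genes higher and 1 distal gene lower. It called 1 injury gene in each direction. The log2 difference was positive for 7 of 8 stromal, 8 of 8 endothelial, 7 of 7 immune and 2 of 8 distal genes. Summed endothelial markers were 330.8 to 450.9 CPM in the libraries labelled CDH11+/+ and 459.0 to 507.9 CPM in the others (exact permutation p = 0.0286, the smallest that 4 against 4 allow, 0.157 after adjustment, n = 4 each), and summed injury markers were 15388 to 17388 CPM against 14163 to 15222 CPM, with the same p values. The injury sum mostly reflects Spp1, with 1286114 reads over all libraries, where the next highest marker, Clu, had 209289. Of the 10 injury markers, 5 had a positive and 5 a negative log2 difference, so the sum does not describe them as a group. The adrenal gland, a source of steroid transcripts, left little trace: of 9 markers only Star, a cholesterol transport gene, passed the filter, and Cyp11b2 had no read. Of the 9 fat and male reproductive tract markers 2 were tested, Defb1 and Crisp1, and neither passed, while Svs4, Svs5 and Pate4 had no read. The adipocyte gene Cfd was at 14.9 CPM in CDH11-/- replicate 4 and at most 0.308 CPM elsewhere. The part of these cell types in the results was not tested.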

How the data were processed

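Kidney RNA of 8 mice was sequenced from directional libraries, per the labels' protocols. The authors deposited whole-number counts per Ensembl gene and a signal in normalized counts; the submitters' processing notes name mm10, DRAGEN and DESeq2, with no versions. How reads were assigned to genes, and whether by strand, is not stated in the labels. The 6 genes and all lists were chosen with earlier results of these data known.

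All 42256 identifiers matched GENCODE M21 (GRCm38). edgeR 4.0.16 (R 4.3.3) was fitted with TMM scaling, its low-count filter, robust moderation and labelled genotype alone, over 15852 genes, with Benjamini-Hochberg adjustment at 0.05. It was tested on simulated data. Each SE was taken as |log2 fold change| / sqrt(F). Log2 CPM used a prior count of 2. Replicates were numbered by accession, and nothing pairs them. The p-values weigh the difference between labels against the spread among libraries of the same label. They cannot separate genotype from litter or batch, which the labels do not give. The common biological coefficient of variation was 13.5%. The 17 alternatives included DESeq2 1.42.0, limma 3.58.1 (log2 of the authors' values plus a pseudocount of 1, and voom) and leaving out each library. Where the authors' factor was empty (132 cells), the library median was used. For summed markers, exact permutation tests (two-sided) were used.

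Named are the 6 genes; in 9 pathway lists each gene past the threshold and the 3 of smallest p at 1 CPM or more; tested receptors, of which 1 is not reported here; paralogs; the 5 genes most like Greb1 by each count at 5 CPM or more; and Lrp2, Slc34a1, Havcr1 and Cdh11. Outside this rule, and after their values were seen, Cyp4b1, Cyp7b1, Slc7a13, Slc22a30, Acsm3, Serpina1f, Slc22a7, Akr1c14, Akr1c18, Fkbp5 and Zbtb16 were also named. There were 0 columns of other samples.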

Additional observations from a re-analysis of the deposited data

Results flagged for a closer look

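In groups of 4 libraries, the highest or lowest value was compared with its nearest neighbour by the ratio of that gap to the range (the Dixon criterion at 95%). Of 128 groups looked at, 4 held a library that far from the others, and chance alone gives about 1 in 20 groups. Slco1a1 was at 3.81 CPM in CDH11-/- replicate 2, with the other libraries of that label between 0.403 and 0.845 CPM. Esrra was at 78.8 CPM in CDH11+/+ replicate 1, with the others at 95.2 to 98.4 CPM. That library also had the highest summed stromal markers of its label, 1844 CPM against 1245 to 1343 CPM. The summed fat and male reproductive tract markers were at 159.5 CPM in CDH11-/- replicate 3 and at 180.0 to 181.0 CPM in the other libraries of that label. Defb1, which the kidney expresses, made up 157.8 and 157.9 CPM of the sums in CDH11-/- replicates 3 and 4, and the adipocyte gene Cfd was at 14.9 CPM in replicate 4.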

How the results depend on the processing

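No paired analysis was possible because the labels give no replicate number shared by the genotypes. The count of genes higher in the libraries labelled CDH11-/- was 59, and the count lower was 55. They became 115 and 93 with no filter on low counts, 245 and 287 with DESeq2, 337 and 342 with limma-voom, 27 and 27 with limma on the authors' normalized values, and 25 and 25 with the authors' factors as offsets. Leaving out 1 library gave 13 to 495 higher and 13 to 509 lower, the largest counts without CDH11+/+ replicate 1. The log2 difference of Greb1 became −2.93 and −2.91 with the authors' values and factors, and lay between −4.04 and −3.61 when 1 library was left out. Of pathway list genes other than the 6, 4 passed; 7 did without robust moderation, 11 with DESeq2, 14 with limma-voom and 1 to 14 when 1 library was left out. Without 1 library, Kap ran from −1.39 to −0.141, Esr1 from −0.107 to 0.191, Prlr from −0.746 to −0.138, Odc1 from 0.0884 to 0.186 and Slco1a1 from −2.12 to −0.607. The summed proximal tubule markers of CDH11-/- were 58.2% to 73.7% of those of CDH11+/+. Genes most like Greb1 did not change with prior counts of 1 or 5. No called value reversed in any of the 17 alternatives. Depth limits Slco1a1 and the lower Greb1 values, which rest on 4 to 59 and 4 to 19 reads.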

Other observations

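Serpina1f, a serine protease inhibitor gene of the male-biased list, kept the order of Kap within each label but stood at another level beside it. It was at 5.91, 45.1, 53.7 and 26.6 CPM in the libraries labelled CDH11+/+ and at 113.4, 205.8, 114.2 and 48.6 CPM in those labelled CDH11-/-. As a percentage of the Kap level of the same library it was 1.23 to 2.08 in the first group and 6.22 to 12.6 in the second, without overlap. The plain difference in CPM overlapped between labels and did not pass (log2 1.87 ± 0.69, SE, edgeR adjusted p = 0.304, 0.129 to 0.546 over 17 alternatives). Akr1c14, a hydroxysteroid dehydrogenase gene that also kept the order of Kap in 12 of 12 pairs, was at 2.46% to 2.83% of Kap in the libraries labelled CDH11+/+ and at 3.04% to 3.85% in the others. Cyp7b1 (2.94% to 4.45% against 2.56% to 3.22%), Acsm3 (4.26% to 5.52% against 4.17% to 5.03%) and Akr1c18 (0.390% to 0.474% against 0.313% to 0.510%) overlapped on that scale. These ratios were chosen after the values were seen and were not tested, and Serpina1f belongs to a cluster of close paralogs.

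Among the Y-chromosome genes, Ddx3y was at 26.6 CPM in CDH11-/- replicate 1 and at 49.6 to 62.3 CPM in the other 7 libraries. In the same library Kdm5d was at 30.8 CPM and Uty at 17.6 CPM, each also the lowest of the 8, as was Eif2s3y at 29.4 CPM.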
